A study of Homo sapiens with 8 samples.

Results

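The MHC class I antigen presentation genes were followed as a set of 9 genes, HLA-B, HLA-C, HLA-E, HLA-F, B2M, TAP1, TAP2, TAPBP and NLRC5, taken by name from 60554 gene rows. All 9 had a row and all 9 passed the filter on low counts, as did 20238 genes in all. Their level in bulk RNA was compared between docetaxel resistant and docetaxel sensitive cells of 2 human prostate cancer lines, with 2 libraries in each of 4 groups. DU145 resistant and PC3 resistant cells were kept with 10 nM docetaxel, a taxane that stabilizes microtubules, in DMSO. DU145 sensitive and PC3 sensitive cells were kept with 0.1% DMSO. DU145 was derived from a brain metastasis and PC3 from a bone metastasis, and both grow without androgen. Each line stands for 1 tumor, and the sources used here do not give whether the resistant cells were 1 clone or a mixed population, or whether docetaxel was present when the bulk libraries were collected. The labels name no separate cultures, so each p-value reflects the spread between libraries only, and that spread may be technical.

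MHC class I molecules show peptides from inside the cell to cytotoxic T cells and natural killer cells. A heavy chain, such as HLA-B, HLA-C, HLA-E or HLA-F, pairs with the light chain B2M in the endoplasmic reticulum (ER). The transporter TAP1/TAP2 brings in peptides made by the proteasome, and tapasin, the product of TAPBP, holds the heavy chain at the transporter while it is loaded. NLRC5 is the transactivator of these genes. Interferons raise them through IRF1 and NLRC5, and tumors often lower them.

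Of the 9 genes, 7 lie in the MHC region of chromosome 6, and B2M and NLRC5 lie on chromosomes 15 and 16. All are protein coding. In GENCODE 44 on GRCh38, HLA-B (ENSG00000234745.9) spans chr6:31353872-31367067 and HLA-C (ENSG00000204525.15) chr6:31268749-31272130, both on the minus strand. B2M (ENSG00000166710.17) spans chr15:44711358-44718851 on the plus strand, and NLRC5 (ENSG00000140853.15) chr16:56989485-57083531 on the plus strand. TAP1 (ENSG00000168394.10) spans chr6:32845209-32853816 on the minus strand. Class I promoters are known to carry an NF-kB element, an interferon element bound by IRF factors, and an X and Y box to which RFX, CREB and NF-Y bind together with NLRC5.

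The 250 bases before the RefSeq start (GRCh38.p14) are shown for the heavy chains HLA-B and HLA-C, for their partner B2M and for TAP1, because these genes share regulators but moved by different amounts. A promoter was matched for 7 of the 9 genes and none was matched for HLA-E and NLRC5. Capitals mark matches, on either strand and at any position, to 4 patterns. They are an NF-kB pattern (GGG, any 2 bases, TT, any base, CC) and TTTCNNTT (IRF). TGACG (the CREB-type X box core) and CCAAT (as in the Y box) are the others. A CCAAT match alone is not a Y box, and that of TAP1 (bases -249 to -245) stands without a TGACG match. The windows are chr6:31357180-31357429 for HLA-B and chr6:31272093-31272342 for HLA-C, both on the minus strand. They are chr15:44711267-44711516 for B2M on the plus strand and chr6:32853705-32853954 for TAP1 on the minus strand.
HLA-B: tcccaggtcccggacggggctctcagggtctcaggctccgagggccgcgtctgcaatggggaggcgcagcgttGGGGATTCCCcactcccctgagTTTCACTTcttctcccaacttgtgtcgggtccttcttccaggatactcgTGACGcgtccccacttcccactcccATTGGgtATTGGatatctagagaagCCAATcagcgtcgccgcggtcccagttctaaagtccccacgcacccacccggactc
HLA-C: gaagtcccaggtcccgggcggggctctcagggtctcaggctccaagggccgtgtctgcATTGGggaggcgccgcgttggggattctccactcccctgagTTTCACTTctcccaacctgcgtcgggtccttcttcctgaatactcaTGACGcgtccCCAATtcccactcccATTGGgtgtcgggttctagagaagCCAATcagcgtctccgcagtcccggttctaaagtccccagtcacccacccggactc
B2M: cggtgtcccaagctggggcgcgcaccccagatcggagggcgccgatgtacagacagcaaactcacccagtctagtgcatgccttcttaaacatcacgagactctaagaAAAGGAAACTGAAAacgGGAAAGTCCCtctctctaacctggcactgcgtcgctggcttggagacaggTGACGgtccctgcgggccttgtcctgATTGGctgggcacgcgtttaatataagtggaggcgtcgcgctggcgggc
TAP1: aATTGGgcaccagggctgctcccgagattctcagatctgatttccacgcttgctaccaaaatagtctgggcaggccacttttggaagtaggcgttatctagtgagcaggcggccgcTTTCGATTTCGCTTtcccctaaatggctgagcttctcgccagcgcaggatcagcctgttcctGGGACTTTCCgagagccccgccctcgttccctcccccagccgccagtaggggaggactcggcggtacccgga

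The IRF letters were found in 7 of 7 class I promoters and in 20.3% of 35116 promoters of the same length. The NF-kB letters were found in 4 of 7 and in 5.07% of all promoters, the CREB-type letters in 4 of 7 and in 21.2%, and CCAAT in 5 of 7 and in 32%. The class I counts are by gene. TAP1 had another RefSeq window, chr6:32852762-32853011, which is not shown and held no match to these patterns. The IRF matches of B2M and TAP1 are each a pair that overlaps by 2 bases and reads as 1 longer run of capitals. HLA-B and HLA-C were identical at 226 of 254 aligned positions (89.0%). The NF-kB stretch of HLA-B is GGGGATTCCCC. That of HLA-C is GGGGATTCTCC, a C9T difference counted from 1 at its first G, so that it falls outside the letters searched. A match describes these letters and is not a bound site.

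Levels were read as counts per 1000000 scaled by TMM (CPM). This normalization adjusts library sizes to limit the effect of differences in composition between libraries. The libraries held from 31685148 to 43045127 counts, with TMM factors from 0.951 to 1.038 and from 0.501% to 2.07% of counts on mitochondrial genes. The epithelial markers were KRT8, KRT18, EPCAM and CDH1. They summed to between 202 and 378 CPM in DU145 resistant libraries, against 2422 to 4120 CPM in DU145 sensitive libraries. The part of this gap in the DU145 values below was not tested. KRT8 and KRT18 made up most of these sums and, with CDH1, were lower in DU145 resistant libraries. EPCAM differed less, with 19.2 and 16.9 CPM in DU145 resistant libraries, against 21.7 and 19.8 CPM in DU145 sensitive libraries. In PC3 the epithelial markers summed to between 432 and 539 CPM in resistant and 294 and 421 CPM in sensitive libraries. KLK3 had no count in any library. Leukocytes carry much class I. The 6 leukocyte markers summed to between 2.71 and 8.69 CPM in PC3 resistant libraries, against 1.19 to 2.40 CPM in PC3 sensitive libraries. Of these, PTPRC, which marks leukocytes in general, had 8 and 5 counts in PC3 resistant libraries, against 14 and 17 counts in PC3 sensitive libraries, and CD3E, which marks T cells, had none. LYZ had 31 and 228 counts in PC3 resistant libraries, against 3 and 6 in PC3 sensitive libraries, and CD14 had 37 and 33 counts in PC3 resistant libraries, against 4 and 9 in PC3 sensitive libraries. In DU145 the 6 leukocyte markers summed to between 1.12 and 1.33 CPM in resistant and 0.902 and 1.04 CPM in sensitive libraries. The 3 endothelial markers summed to between 12.9 and 24.7 CPM in PC3 resistant libraries, against 6.76 to 7.06 CPM in PC3 sensitive libraries. This sum was almost all PECAM1, which rose (log2 fold change 1.44, edgeR adjusted p = 0.00433). In PC3 resistant libraries PECAM1 had 560 and 964 counts, CDH5 had 2 and 3, and VWF had 13 and 11. The 4 fibroblast markers summed to between 24.1 and 29.5 CPM in PC3 resistant libraries, against 24.1 to 35.3 CPM in PC3 sensitive libraries. In DU145 the endothelial sum was at most 1.37 CPM and the fibroblast sum at most 6.97 CPM. The part of these markers in the class I values was not tested.

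The largest class I change with resistance was in PC3 cells. HLA-B, HLA-C and NLRC5 rose in PC3 resistant cells, by 4.44-fold, 2.13-fold and 2.05-fold. B2M, HLA-E, TAP1, TAP2, TAPBP and HLA-F did not pass the test. Of the 9 genes, 3 rose and 0 fell at an edgeR adjusted p under 0.05, against 18.6% of all tested genes that rose and 17% that fell. At an unadjusted p under 0.05 the counts were 5 and 0, and DESeq2 called 3 and 0. The median of the 9 log2 fold changes was 0.32, against 0.01 over all tested genes. In bulk RNA, fewer cells with a transcript and less transcript per cell cannot be told apart.

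**Figure D1:**
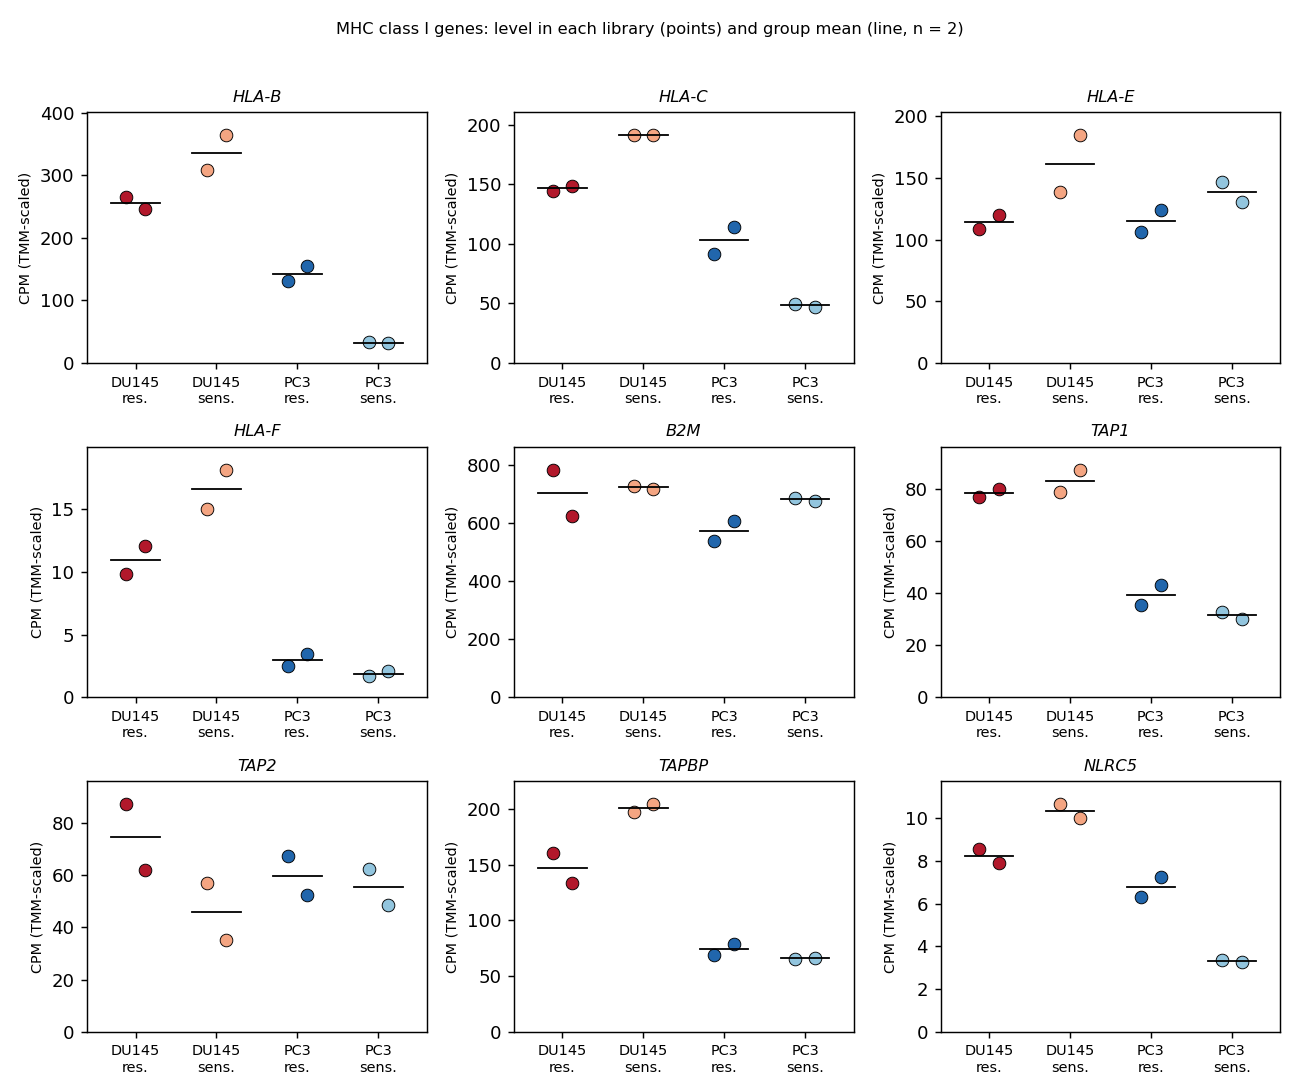
Level of each of the 9 class I genes (CPM, TMM-scaled, linear axis from 0) in DU145 resistant, DU145 sensitive, PC3 resistant and PC3 sensitive cells. Points are libraries and lines are group means of 2. HLA-B, HLA-C and NLRC5 lie higher in PC3 resistant than in PC3 sensitive libraries, and 6 genes are highest in DU145 sensitive and lowest in PC3 sensitive cells.

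Among the heavy chains, HLA-B had 131 and 155 CPM in PC3 resistant libraries, against 32.7 and 31.6 CPM in PC3 sensitive libraries. Its groups were far apart, with a log2 fold change of 2.15 (SE 0.15, edgeR adjusted p = 2.86e-06). HLA-C, whose promoter is shown beside that of HLA-B above, had 91.5 and 114 CPM in PC3 resistant libraries, against 49.8 and 46.8 CPM in PC3 sensitive libraries. The groups did not overlap and the log2 fold change was 1.09 (SE 0.14, edgeR adjusted p = 0.000206). HLA-E, which presents leader peptides of other class I chains to the NKG2A receptor, had 107 and 124 CPM in PC3 resistant libraries, against 146 and 130.4 CPM in PC3 sensitive libraries. Its log2 fold change of -0.26 (SE 0.16) did not pass (edgeR adjusted p = 0.236). HLA-F, a heavy chain of low abundance, had 2.47 and 3.44 CPM in PC3 resistant libraries, against 1.67 and 2.11 CPM in PC3 sensitive libraries. At these low counts the log2 fold change was 0.64 (SE 0.27, edgeR adjusted p = 0.0887).

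The shared partners B2M, TAP1, TAP2 and TAPBP moved less than HLA-B and HLA-C. B2M had 537 and 606 CPM in PC3 resistant libraries, against 685 and 675 CPM in PC3 sensitive libraries. The log2 fold change was -0.25 (SE 0.15, edgeR adjusted p = 0.227). TAP1 had 35.4 and 42.9 CPM in PC3 resistant libraries, against 32.9 and 29.9 CPM in PC3 sensitive libraries. Its groups did not overlap, but the log2 fold change of 0.32 (SE 0.14) did not pass (edgeR adjusted p = 0.109). With total count scaling in place of TMM, TAP1 passed (log2 fold change 0.42, adjusted p = 0.0460). TAP2 had 67.3 and 52.5 CPM in PC3 resistant libraries, against 62.2 and 48.7 CPM in PC3 sensitive libraries, and the groups overlapped (log2 fold change 0.11, SE 0.25, edgeR adjusted p = 0.763). TAPBP had 69.1 and 79.2 CPM in PC3 resistant libraries, against 65.6 and 66.5 CPM in PC3 sensitive libraries, with a log2 fold change of 0.17 (SE 0.14, edgeR adjusted p = 0.382). NLRC5 had 6.32 and 7.25 CPM in PC3 resistant libraries, against 3.35 and 3.27 CPM in PC3 sensitive libraries. Both PC3 resistant libraries lay above both PC3 sensitive libraries, with a log2 fold change of 1.03 (SE 0.22, edgeR adjusted p = 0.00421).

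Groups did not overlap for 8 of the 9 genes in PC3, as was so for 71.2% of all tested genes. The calls of HLA-B, HLA-C and NLRC5 held in each alternative fit, including those that left out 1 library. Without 1 library, their log2 fold changes ranged from 2.03 to 2.27, from 0.92 to 1.24 and from 0.93 to 1.13. Heavy chain genes resemble each other, and how reads with several matches were counted is not given, so the counts of HLA-B and HLA-C were also summed. The sum gave a log2 fold change of 1.61 in PC3.

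In DU145, HLA-E and TAPBP fell in DU145 resistant cells and the other 7 class I genes did not pass. The counts were 0 higher and 2 lower of 9 (edgeR), against 12.4% of all tested genes higher and 15.4% lower. At an unadjusted p under 0.05 the counts were 1 and 5, and DESeq2 called 1, TAP2, and 2. The log2 fold changes were negative for 8 of the 9 genes, with a median of -0.38 against 0 over all tested genes. Groups did not overlap for 7 of 9 genes, and for 61.3% of all tested genes.

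HLA-E had 109 and 119.9 CPM in DU145 resistant libraries, against 139 and 185 CPM in DU145 sensitive libraries. Its log2 fold change was -0.50 (SE 0.16, edgeR adjusted p = 0.0416). TAPBP had 160.1 and 134 CPM in DU145 resistant libraries, against 198 and 204 CPM in DU145 sensitive libraries, a log2 fold change of -0.45 (SE 0.14, edgeR adjusted p = 0.0313). Both groups of libraries were separate for these genes, yet both calls were lost when only the DU145 libraries were fitted (adjusted p = 0.0856 for HLA-E and 0.0816 for TAPBP). Both were also lost without DU145 resistant replicate 2, without DU145 sensitive replicate 2, and without either PC3 sensitive library. HLA-E was lost too without DU145 resistant replicate 1 and TAPBP without DU145 sensitive replicate 1. Over the 8 fits without 1 library, from 0 to 3 of the 9 genes were lower.

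HLA-B had 265 and 247 CPM in DU145 resistant libraries, against 308 and 364 CPM in DU145 sensitive libraries. The log2 fold change was -0.39 (SE 0.14, edgeR adjusted p = 0.0626). HLA-C had 145 and 148 CPM in DU145 resistant libraries, against 191.0 and 191.0 CPM in DU145 sensitive libraries, a log2 fold change of -0.38 (SE 0.14, edgeR adjusted p = 0.0604). For both the groups did not overlap, and neither passed. HLA-F had 9.87 and 12.04 CPM in DU145 resistant libraries, against 15.0 and 18.2 CPM in DU145 sensitive libraries (log2 fold change -0.60, SE 0.24). NLRC5 had 8.57 and 7.88 CPM in DU145 resistant libraries, against 10.6 and 10.0 CPM in DU145 sensitive libraries (log2 fold change -0.33, SE 0.21). Neither passed, at edgeR adjusted p = 0.0909 for HLA-F and 0.278 for NLRC5.

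B2M had 783 and 625 CPM in DU145 resistant libraries, against 727 and 716 CPM in DU145 sensitive libraries, and the groups overlapped (log2 fold change -0.04, SE 0.15). TAP1 had 76.7 and 79.9 CPM in DU145 resistant libraries, against 78.6 and 87.3 CPM in DU145 sensitive libraries, again overlapping (log2 fold change -0.08, SE 0.14). TAP2 was the exception in direction, with 87.3 and 62.1 CPM in DU145 resistant libraries, against 56.9 and 35.1 CPM in DU145 sensitive libraries. Its log2 fold change of 0.70 (SE 0.25) did not pass in edgeR (adjusted p = 0.0573) and passed in DESeq2 (adjusted p = 0.0290). The SD of TAP2 was wide for its level in DU145 sensitive cells, at 46.0 ± 15.4 CPM (SD, n = 2).

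Whether resistance went with a different class I change in PC3 than in DU145 was tested as the PC3 difference minus the DU145 difference. It was positive for HLA-B, HLA-C, NLRC5, HLA-F and TAPBP. Thus 5 of 9 genes were higher and 0 lower in this contrast (edgeR), against 18.5% of all tested genes higher and 15.9% lower. The counts were also 5 and 0 at an unadjusted p under 0.05, and DESeq2 called 5 and 0. The log2 value was 2.54 for HLA-B (SE 0.21, edgeR adjusted p = 1.01e-05), 1.47 for HLA-C (SE 0.20, 0.000278) and 1.36 for NLRC5 (SE 0.30, 0.00578). It was 1.24 for HLA-F (SE 0.36, edgeR adjusted p = 0.0226) and 0.62 for TAPBP (SE 0.19, 0.0311). HLA-F lost its call in 4 of the 8 fits without 1 library and TAPBP in 6 of them, so that 3 to 5 genes were called. The values of B2M (-0.22), HLA-E (0.24), TAP1 (0.40) and TAP2 (-0.59) did not pass, with edgeR adjusted p from 0.150 to 0.477. Total count scaling moved the median of all genes in this contrast by 0.106 on the log2 scale and turned no class I gene round.

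**Figure D2:**
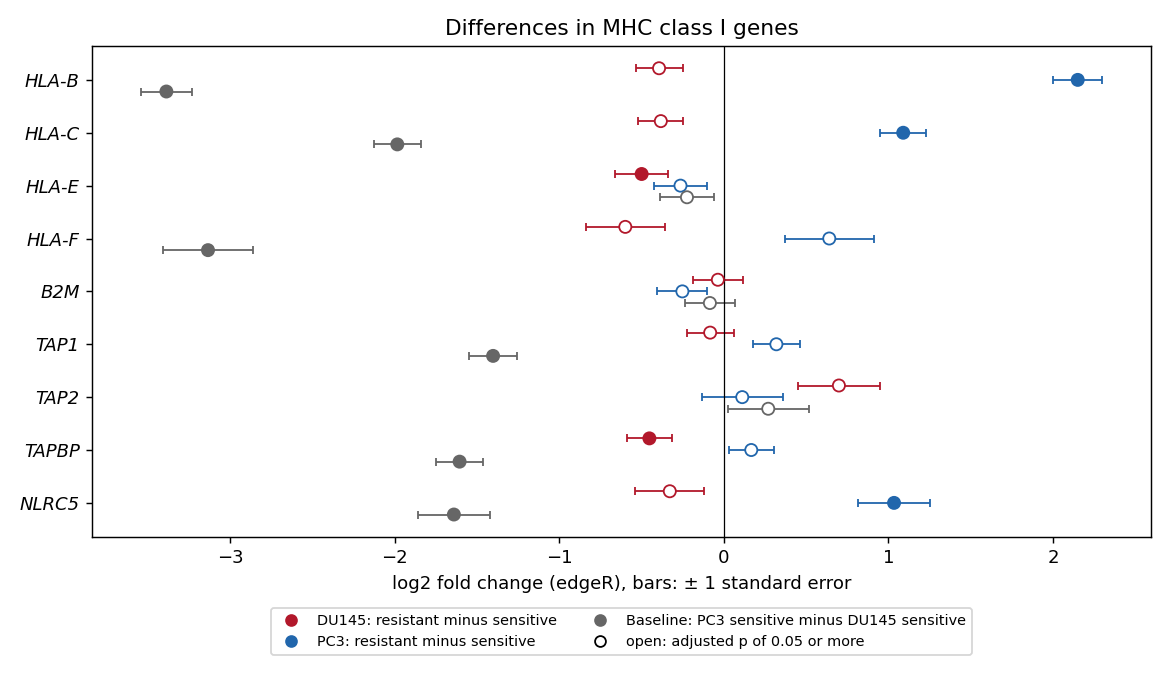
Log2 fold change of each class I gene from edgeR with 1 standard error, for resistant minus sensitive cells in DU145 and in PC3 and for PC3 sensitive minus DU145 sensitive cells. Filled points passed at an adjusted p under 0.05. HLA-B stands at 2.15 in PC3, -0.39 in DU145 and -3.39 at baseline, while B2M stays near 0 in all of them.

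The sensitive cells of the lines differed. HLA-B, HLA-C, HLA-F, TAP1, TAPBP and NLRC5 were lower in PC3 sensitive than in DU145 sensitive cells, while HLA-E, B2M and TAP2 did not pass. Thus 6 of 9 were lower and 0 higher (edgeR), against 29.2% of all tested genes lower and 28.6% higher. The counts were 6 and 0 at an unadjusted p under 0.05 and by DESeq2 too. The log2 fold changes had a median of -1.61, against -0.03 over all tested genes. Groups did not overlap for 7 of the 9, as for 80.4% of all tested genes. Line, clone and any difference in preparation cannot be told apart here. The lines also carry HLA alleles that may differ from the reference by unequal amounts, and this and the level of the gene cannot be told apart in these counts.

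HLA-B showed the widest gap between the lines, being 10.5-fold lower in PC3 sensitive cells (log2 fold change -3.39, SE 0.16, edgeR adjusted p = 4.11e-08). HLA-F was 8.78-fold lower (log2 fold change -3.13, SE 0.27), HLA-C 3.95-fold (-1.98, SE 0.14) and NLRC5 3.12-fold (-1.64, SE 0.22). TAPBP was 3.04-fold lower (log2 fold change -1.61, SE 0.14) and TAP1 2.64-fold (-1.40, SE 0.15). The 6 calls held in all alternative fits. The 3 genes that did not pass were HLA-E at -0.22 (SE 0.16), B2M at -0.08 (SE 0.15) and TAP2 at 0.27 (SE 0.25), with edgeR adjusted p of 0.259, 0.654 and 0.371. This comparison and the 2 comparisons of resistant with sensitive cells share the sensitive libraries.

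Set against DU145 sensitive cells, the level of HLA-B was 42.4% in PC3 resistant and 9.56% in PC3 sensitive cells. HLA-C stood at 53.8% in PC3 resistant and 25.3% in PC3 sensitive cells, and NLRC5 at 65.7% in PC3 resistant and 32.1% in PC3 sensitive cells. TAP1 stood at 47.2% in PC3 resistant and 37.8% in PC3 sensitive cells, and TAPBP at 36.9% in PC3 resistant and 32.9% in PC3 sensitive cells. HLA-F stood at 17.8% in PC3 resistant and 11.4% in PC3 sensitive cells. The mean of each of these genes was thus lower in PC3 resistant than in DU145 sensitive cells, a difference that was not itself tested. The same order, DU145 sensitive highest, then DU145 resistant, PC3 resistant and PC3 sensitive, held for the mean level of 6 of the 9 genes. Among neighbors in this order, the DU145 groups passed the test only for TAPBP and the PC3 groups only for HLA-B, HLA-C and NLRC5, and DU145 resistant was not tested against PC3 resistant cells.

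Per kilobase of exon, B2M ranked first of the 9 genes in every group and NLRC5 last. B2M averaged 183 ± 15.8 CPM per kb in PC3 resistant and 218 ± 2.26 CPM per kb in PC3 sensitive cells (SD, n = 2 each). HLA-B averaged 30.9 ± 3.62 CPM per kb in PC3 resistant and 6.95 ± 0.179 CPM per kb in PC3 sensitive cells, and ranked 4th and 5th in those groups. It averaged 55.4 ± 2.88 CPM per kb in DU145 resistant and 72.7 ± 8.51 CPM per kb in DU145 sensitive cells and ranked 3rd in both. These lengths join all annotated exons of a gene (4623 bases for HLA-B), which lowers the value of genes with long rare transcripts.

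The make-up of the heavy chain counts differed between groups. HLA-B took 39.5% and 39.0% of the counts of HLA-B, HLA-C, HLA-E and HLA-F in PC3 resistant libraries, against 14.2% and 15.0% in PC3 sensitive libraries. HLA-E took 32.2% and 31.3% in PC3 resistant libraries, against 63.5% and 61.9% in PC3 sensitive libraries. In DU145, HLA-B took 50.2% and 46.8% in resistant and 47.2% and 48.0% in sensitive libraries, so the groups overlapped. In DU145 resistant replicate 1, with 17460 heavy chain counts, the 95% Wilson interval of the HLA-B share was 49.4% to 50.9%, and it covers counting error only. The summed heavy chains per kilobase were 0.592 and 0.629 of B2M in PC3 resistant libraries, against 0.353 and 0.326 in PC3 sensitive libraries. In DU145 this ratio was 0.617 and 0.781 in resistant and 0.832 and 0.969 in sensitive libraries. Per kilobase of joined exons, the heavy chains summed to less than B2M in each library. In CPM they summed to 758 in DU145 sensitive replicate 2, above the 716 of B2M.

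**Figure D3:**
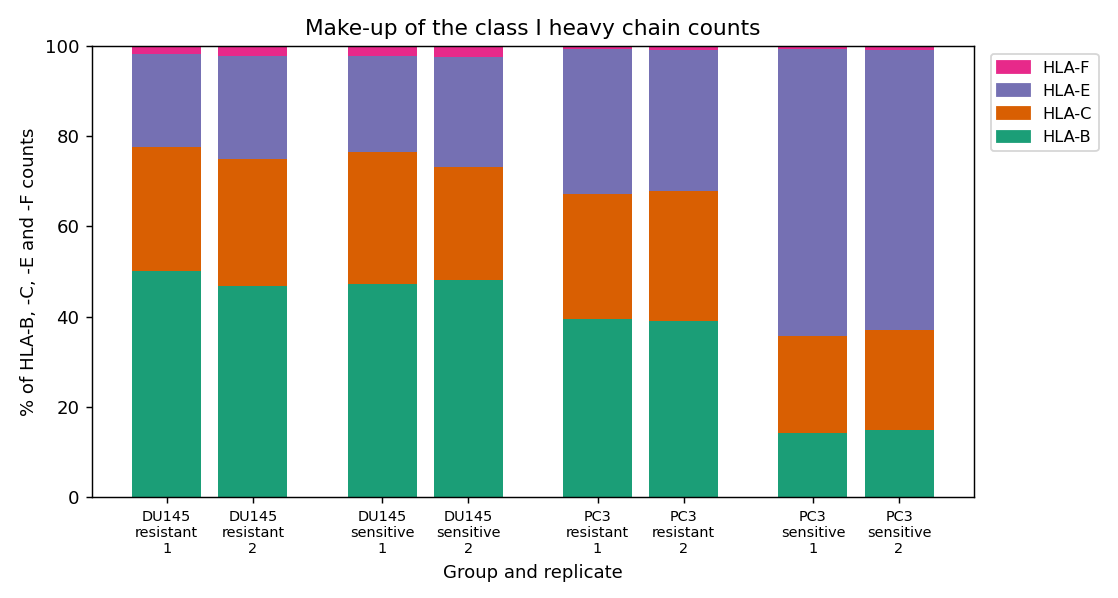
Share of HLA-B, HLA-C, HLA-E and HLA-F in their summed counts (percent, y axis) in each library, by group and replicate. HLA-E makes up 63.5% and 61.9% in PC3 sensitive libraries and 32.2% and 31.3% in PC3 resistant libraries, where HLA-B takes a larger share.

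The genes that trim and load peptides were examined next. ERAP1 and ERAP2, the aminopeptidases that cut peptides to length in the ER, rose in resistant cells of both lines. ERAP2 had 56.2 and 78.0 CPM in PC3 resistant libraries, against 4.96 and 5.25 CPM in PC3 sensitive libraries (log2 fold change 3.72, SE 0.21, edgeR adjusted p = 5.64e-07). In DU145 it had 65.3 and 62.2 CPM in resistant libraries, against 28.7 and 22.9 CPM in sensitive libraries (log2 fold change 1.30, SE 0.18, edgeR adjusted p = 0.000509). The difference between the lines was 2.41 on the log2 scale. ERAP1 rose by a log2 fold change of 0.87 in PC3 (SE 0.16, edgeR adjusted p = 0.00199) and of 0.97 in DU145 (SE 0.16, edgeR adjusted p = 0.00138). Of 11 loading partners and trimming enzymes, 2 rose and 1 fell in PC3, and 4 rose and 0 fell in DU145. Over all tested genes, 18.6% rose and 17% fell in PC3, and 12.4% rose and 15.4% fell in DU145. These shares also apply to the list counts below. At an unadjusted p under 0.05 the DU145 counts were 4 and 0, and DESeq2 called 4 and 0. The list median was -0.22 in PC3 and 0.26 in DU145. The chaperone CANX, which holds new heavy chains, rose in DU145 (log2 fold change 0.77, SE 0.15, edgeR adjusted p = 0.00287) and had a log2 fold change of -0.36 in PC3 (edgeR adjusted p = 0.0799).

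The proteasome subunits that interferon induces did not move as one. Of the 5 genes of the immunoproteasome and its PA28 cap, 1 rose and 3 fell in PC3, and 1 rose and 1 fell in DU145. PSMB9 lies beside TAP1, on the opposite strand, and had 3.16 and 4.12 CPM in PC3 resistant libraries, against 2.25 and 1.81 CPM in PC3 sensitive libraries (log2 fold change 0.84, SE 0.25, edgeR adjusted p = 0.0258). The 2 genes overlap, and how strand was used in counting is not given. PSMB10 fell in PC3 (log2 fold change -0.92, edgeR adjusted p = 0.0345), as did the PA28 subunits PSME1 (-0.73, 0.00933) and PSME2 (-0.55, 0.0263). PSMB8 rose in DU145 (log2 fold change 0.44, edgeR adjusted p = 0.0454), where PSME1 fell (-1.16, 0.00105). The 3 constitutive catalytic subunits had 0 calls in PC3 by edgeR, 0 at an unadjusted p under 0.05 and 0 by DESeq2. In DU145 2 of them rose and 1 fell. Of 7 cytosolic peptidases, 1 rose and 1 fell in PC3, and 4 rose and 1 fell in DU145.

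Regulators other than NLRC5 changed in both directions in PC3. Of 15 tested transcription factors of class I genes, 1 rose and 7 fell in PC3 with a median of -0.40, and 1 rose and 1 fell in DU145. IRF1, which binds the IRF element, had 10.0 and 9.57 CPM in PC3 resistant libraries, against 22.4 and 21.8 CPM in PC3 sensitive libraries (log2 fold change -1.17, SE 0.16, edgeR adjusted p = 0.000307). In DU145 its log2 fold change was 0.11 (edgeR adjusted p = 0.635), and the difference between the lines was -1.28 (edgeR adjusted p = 0.00140). RFX5, a subunit of the RFX complex at the X box, fell in PC3 (log2 fold change -0.62, SE 0.13, edgeR adjusted p = 0.00452), as did NFKB1 (-0.64, 0.0172) and STAT2 (-0.87, 0.0421). Its partner RFXAP rose in PC3 (log2 fold change 0.99, edgeR adjusted p = 0.00350). CIITA, the class II counterpart of NLRC5, had 28 to 44 counts in each library and did not pass in PC3. The number of falls in PC3 varied from 1 to 7 over the fits without 1 library.

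Interferon stimulated genes went the other way from HLA-B and HLA-C in PC3. Of 17 tested, 1 rose and 14 fell, with a median log2 fold change of -1.41. IFIT2, an antiviral RNA-binding protein, had 15.2 and 21.1 CPM in PC3 resistant libraries, against 107 and 119 CPM in PC3 sensitive libraries (log2 fold change -2.64, edgeR adjusted p = 5.12e-06). OAS2, IRF7 and MX1 fell as well, with log2 fold changes of -2.84, -2.41 and -1.99. From 12 to 14 fell over the fits without 1 library. In DU145, 3 rose, among them ISG15 (log2 fold change 1.47) and IFIH1 (1.43), and 3 fell, among them MX1 (-3.34) and IFIT1 (-1.44), with a median of -0.02. At baseline, where 6 class I genes were lower in PC3 sensitive than in DU145 sensitive cells, 16 of the 17 interferon stimulated genes were higher and 1 lower, with a median of 2.16. Over all tested genes, 28.6% were higher and 29.2% lower at baseline. ISG15 had 221 and 226 CPM in PC3 sensitive libraries, against 10.7 and 9.13 CPM in DU145 sensitive libraries. Of 12 interferon receptor and signaling genes, 0 rose and 2 fell in PC3 by edgeR, against 2 and 2 at an unadjusted p under 0.05 and 0 and 2 by DESeq2. In DU145 3 rose and 3 fell.

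**Figure D4:**
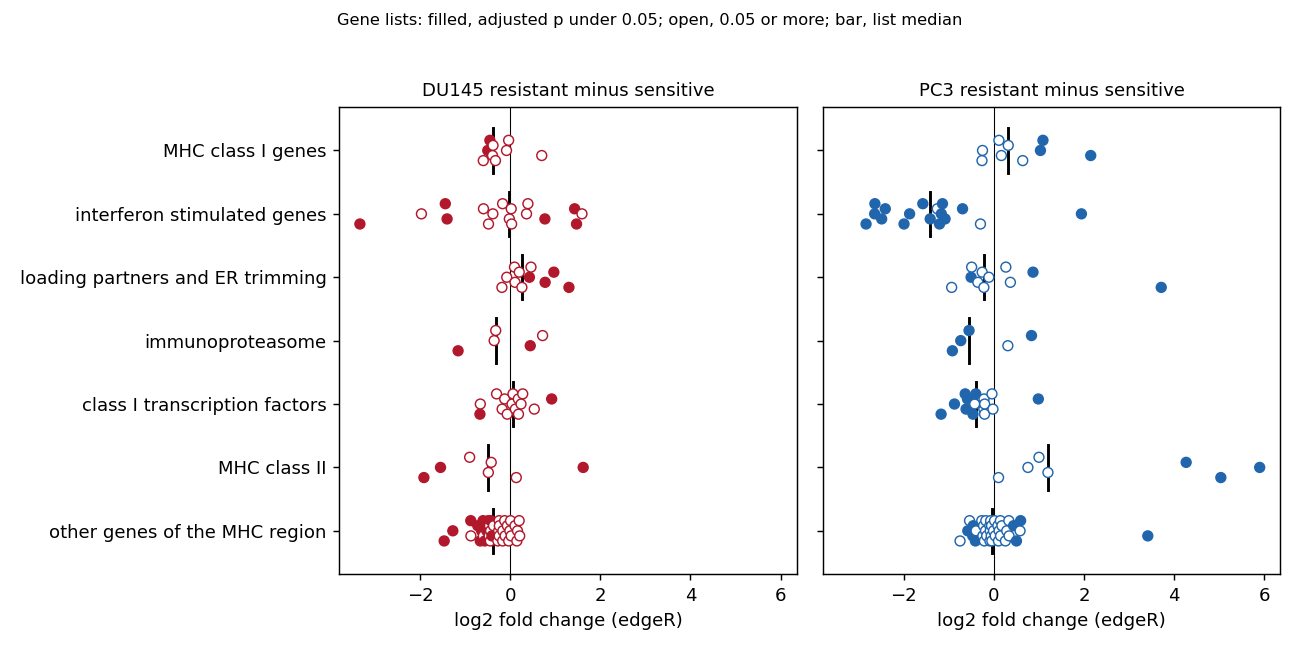
Log2 fold change (x axis, edgeR) of each gene in the class I set and 6 related lists, resistant minus sensitive, in DU145 and PC3. Filled points passed at an adjusted p under 0.05 and black bars are list medians. In PC3 the interferon stimulated genes have a median of -1.41 while the class I genes have one of 0.32.

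Class II genes had few counts, and 7 of 12 were tested. HLA-DQB1, a class II beta chain, had 3.99 and 3.94 CPM in PC3 resistant libraries, against 0 and 0.130 CPM in PC3 sensitive libraries. In DU145 it had 1.82 and 2.39 CPM in resistant libraries, against 7.82 and 8.09 CPM in sensitive libraries. Of the 7, 3 rose and 0 fell in PC3 (edgeR), with 3 and 0 at an unadjusted p under 0.05 and by DESeq2, and 1 rose and 2 fell in DU145. The leukocyte marker sums given above were higher in PC3 resistant than in PC3 sensitive libraries, and their part in these values was not tested.

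The position of the class I genes in the MHC region was used to set them beside their neighbors. Of 39 other genes of the region, 0 rose and 13 fell in DU145 (edgeR), with a median of -0.37, close to that of the class I genes (-0.38). At an unadjusted p under 0.05 the counts were 0 and 17, and DESeq2 called 0 and 12. The falls included NEU1 (log2 fold change -1.47), a lysosomal sialidase, and ZBTB22 (-1.27), RGL2 (-0.88) and FLOT1 (-0.72). From 4 to 14 of the 39 fell over the fits without 1 library. In PC3, 4 rose and 4 fell with a median of -0.05, against 0.32 for the class I genes. The highest value of the region in PC3 was that of NOTCH4, a receptor of low abundance here, at a log2 fold change of 3.42, and it is named after its value was seen. In the difference between the lines, 9 of the 39 were higher and 0 lower (edgeR). Over all tested genes, 18.5% were higher and 15.9% lower in this contrast. At an unadjusted p under 0.05 the counts of the 39 were 12 and 0, and DESeq2 called 9 and 0.

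**Figure D5:**
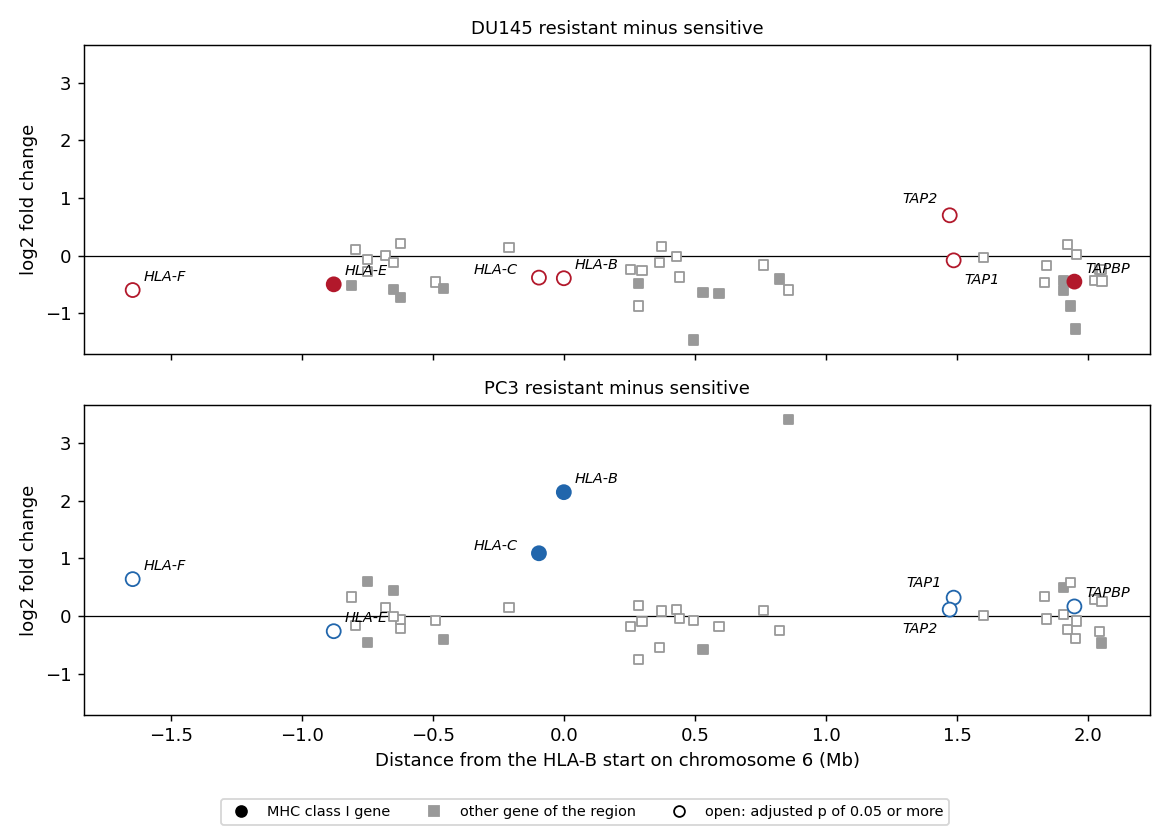
Log2 fold change (y axis, edgeR) of class I genes (circles) and other genes of the MHC region (grey squares) by distance from the HLA-B start on chromosome 6 in Mb (x axis), in DU145 and in PC3. Filled symbols passed at an adjusted p under 0.05. In DU145 the neighbors have a median of -0.37, and in PC3 HLA-B and HLA-C stand at 2.15 and 1.09 among neighbors with a median of -0.05.

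Over the 8 libraries, the mean standardized profile of the 9 genes was followed most closely by TAPBP (Pearson r = 0.986), TAP1 (0.981) and HLA-F (0.973), then HLA-C (0.934), HLA-B (0.905) and NLRC5 (0.902). B2M (0.559), HLA-E (0.264) and TAP2 (-0.0593) followed it less. Each of the 9 genes is itself part of that profile, which raises its r, and the genes named next are not. Genes with clone-type or LINC names were left out of the ranking. Of the 10594 remaining genes that averaged 8 CPM or more, PSMB9 had the highest r with that profile at 0.995. PSMB9 overlaps TAP1, and how strand was used in counting is not given, so these genes may share reads. PI4K2B (0.989), SLC48A1 (0.988), CDK5RAP2 (0.987) and TNFRSF1A (0.987) were among the next. The 8 points share 4 groups and 2 lines, and these values are given as a description.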

How the data were processed

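RNA was measured in 8 bulk libraries of DU145 and PC3 cells, prepared with a SMART-seq mRNA kit. What the authors deposited for each library was a table of raw counts by gene, not normalized. The submitters' processing notes name Bowtie and hg38. For the counter, its annotation, its use of strand and its treatment of multiply matching reads, nothing was given in the sources used here. Reads from a gene and an antisense gene that overlaps it, such as HLA-F and HLA-F-AS1 (19 to 174 counts per library), can then not be told apart. Rows resembling class I heavy chains, such as HLA-H (220 to 364 counts) and HLA-L (91 to 208 counts), may share reads with the heavy chains.

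Groups came from the sample labels. Genes were filtered with edgeR's filterByExpr by group, and counts were scaled by TMM. A model of 4 group means over the 8 libraries was fitted (edgeR 4.0.16, R 4.3.3). Contrasts were tested by quasi-likelihood F tests, p-values were adjusted by Benjamini-Hochberg over 20238 genes, and genes under 0.05 were called. The fit had 4 residual degrees of freedom and a common biological coefficient of variation of 17.1%. Standard errors were derived from the F statistic, as the size of a log2 fold change over the root of F. Replicates differed by more than sampling noise (chi-square per degree of freedom from 18.39 to 47.94), so none were merged. Coordinates and exon lengths came from GENCODE 44 and promoters from RefSeq.

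The class I genes and the 16 related gene lists, with 167 entries, were chosen with earlier results of these data known. All 9 class I genes are named. From each list up to 4 genes are named per contrast, those that moved most on the log2 scale, provided they passed the threshold and averaged 5 CPM or more, or up to 2 where none passed, along with direct counterparts such as PSMB8, PSMB9, ERAP1, CANX, IRF1 and CIITA. The text names fewer than this allows, and a few listed genes are not reported here. Pattern neighbors are the 6 genes of at least 8 CPM with the highest r, computed on log2 CPM with a prior count of 2. Genes with clone-type or LINC names were not ranked.

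The alternatives were DESeq2 1.42.0, RLE and total count scaling, testing without the low count filter or with a minimum of 1 CPM in 4 libraries, fitting only the groups compared, a block for replicate number, leaving out libraries singly, HLA-B and HLA-C summed, an adjusted p under 0.01 and a limit of 2-fold.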

Additional observations from a re-analysis of the deposited data

Results flagged for a closer look

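The change with resistance differed between PC3 and DU145 for 5 class I genes, by the test of the PC3 difference minus the DU145 difference. HLA-B differed by 2.54 on the log2 scale, with 2.15 in PC3 and -0.39 in DU145. HLA-C differed by 1.47, with 1.09 in PC3 and -0.38 in DU145, and NLRC5 by 1.36, with 1.03 in PC3 and -0.33 in DU145. HLA-F differed by 1.24, with 0.64 in PC3 and -0.60 in DU145. TAPBP differed by 0.62, with 0.17 in PC3 and -0.45 in DU145. Groups did not overlap, in either direction, for 71.2% of all tested genes in PC3 and 61.3% in DU145. For each of the 5, both resistant libraries lay above both sensitive libraries in PC3 and below them in DU145. The share of all tested genes with both of these separations was not counted. The 5 were picked by a test on these same libraries, so the separation adds no further support. HLA-F and TAPBP lost this call when some single libraries were left out, whereas HLA-B, HLA-C and NLRC5 did not.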

How the results depend on the processing

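Under the alternatives, 587 values of class I genes had the same sign and call as reported, 18 passed where the reported fit did not, 30 no longer passed and 4 turned round. Those 4 were B2M in DU145 (0.15 without DU145 resistant replicate 2), TAP2 in PC3 (-0.076 without PC3 resistant replicate 1 and -0.060 without PC3 sensitive replicate 2) and TAP2 at baseline (-0.051 without DU145 sensitive replicate 2). Without 1 library, B2M ranged from -0.22 to 0.15, TAP2 from -0.076 to 0.30 in PC3 and TAP2 from -0.051 to 0.67 at baseline. Among related genes, CALR in DU145 ranged from -0.018 (without DU145 sensitive replicate 2) to 0.47. In the difference between the lines, ERAP1 turned to 0.016 with total count scaling and ranged from -0.32 to 0.15 without 1 library. None of these passed the test, and the cause was not tested.

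In DU145 the class I genes called lower numbered 4 with the 1 CPM filter, 1 with no filter, and 0 with only DU145 fitted, at an adjusted p under 0.01 and at 2-fold. Those called higher numbered 1 by DESeq2, with no filter and with total count scaling, each time TAP2. Without 1 library, 0 to 3 were lower and 0 to 1 higher. In the difference between the lines, 3 were higher at an adjusted p under 0.01, and 3 to 5 were higher and 0 to 1 lower without 1 library.

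Over all genes at an adjusted p under 0.01, 1284 were higher and 1842 lower in DU145, 2385 and 1976 in PC3, and 2339 and 1734 in the difference between the lines. At 2-fold, 1021 were higher and 2002 lower in DU145, 1352 were lower in PC3, 2005 were lower in the difference between the lines, and 3664 were higher at baseline. Without 1 library, 1380 to 2467 were higher and 2243 to 3076 lower in DU145, 2349 to 4021 and 1983 to 3578 in PC3, 2859 to 3610 and 2175 to 3212 in the difference between the lines, and 4713 to 6013 and 4667 to 6099 at baseline.

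The labels give the groups the same replicate numbers, but nothing ties them to a shared culture or day. Deviations of same-numbered libraries correlated at 0.323 in DU145 and 0.0861 in PC3. With replicate number as a block, 5 class I genes were lower and 1 higher in DU145, HLA-F was also called higher in PC3 (log2 fold change 0.63, adjusted p = 0.0364), and 1 (TAP2) was lower in the difference between the lines.

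With 2 libraries per group, small changes such as those of HLA-B and HLA-C in DU145 lie close to the threshold and pass or miss with the setting. HLA-F and NLRC5 rest on low counts.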

Other observations

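Class I related molecules and checkpoint ligands, which meet the same lymphocyte receptors or act beside class I, moved in both directions. Of 14 tested class I related molecules, 3 rose and 2 fell in PC3, and 1 rose and 1 fell in DU145. Over all tested genes, 18.6% rose and 17% fell in PC3, and 12.4% rose and 15.4% fell in DU145. MR1, which presents vitamin metabolites to MAIT cells, had 4.01 and 3.44 CPM in PC3 resistant libraries, against 11.0 and 14.4 CPM in PC3 sensitive libraries (log2 fold change -1.77). ULBP2, a ligand of the activating receptor NKG2D, had 9.60 and 13.7 CPM in PC3 resistant libraries, against 4.78 and 5.02 CPM in PC3 sensitive libraries (log2 fold change 1.25). FCGRT, the heavy chain of the neonatal Fc receptor and a partner of B2M, had 7.18 and 10.7 CPM in DU145 resistant libraries, against 27.3 and 29.8 CPM in DU145 sensitive libraries (log2 fold change -1.68).

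Of 7 tested checkpoint ligands, 2 rose and 1 fell in DU145. CD274, which encodes PD-L1, had 16.0 and 15.8 CPM in DU145 resistant libraries, against 1.40 and 1.13 CPM in DU145 sensitive libraries (log2 fold change 3.65, SE 0.44, edgeR adjusted p = 0.000196). In PC3 it had 12.3 and 6.69 CPM in resistant libraries, against 2.98 and 7.23 CPM in sensitive libraries, and the groups overlapped. In PC3, 1 of the 7 rose and 0 fell (edgeR), against 2 and 2 at an unadjusted p under 0.05 and 1 and 0 by DESeq2.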
